A study of Mus musculus with 2 samples.

Results

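Osteoblasts of the fracture callus were the cells that carried type I collagen RNA together with bone mineral matrix RNA while holding little cartilage collagen or myeloid RNA. They made up 138 of 21266 barcodes kept from single-cell RNA-seq (scRNA-seq) of mouse femoral callus, with 121 of 13460 from the library named MGJ and 17 of 7806 from the one named MGJ2. A barcode was counted as an osteoblast when, of every 10000 of its UMIs (unique molecular identifiers, 1 per captured RNA molecule), at least 50 came from Col1a1 and at least 20 from Ibsp, Alpl, Bglap, Bglap2 and Ifitm5 together. In the same unit it held fewer than 100 UMIs of Col2a1, fewer than 100 of Col10a1 and fewer than 50 of S100a8, S100a9, C1qa, C1qb and C1qc together, and it carried at least 2000 UMIs in all, at least 200 genes and at most 20% mitochondrial UMIs. The osteoblasts were thus chosen by the measured levels of these 13 genes, which are given below as a description only and support nothing.

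Both libraries came from the callus of wild-type mice with a femoral fracture. The animals were male C57BL/6J mice aged 12 weeks, and calluses were taken 10 days (n = 5 mice) and 20 days (n = 5 mice) after fracture. The labels gave neither library a day, and barcodes could not be traced to single mice, so MGJ and MGJ2 are described side by side as 2 unassigned libraries and no difference between them is read as a difference between days. Each value rests on 1 library. No p-value was therefore computed, and the 95% intervals in parentheses cover counting error only.

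Osteoblasts build bone by secreting a matrix of type I collagen and then loading it with calcium phosphate. The transcription factors Runx2 and Sp7 (osterix) commit precursors to this lineage, alkaline phosphatase (Alpl) frees phosphate for mineral, and the acidic proteins bone sialoprotein (Ibsp), osteopontin (Spp1) and Dmp1 bind mineral or collagen. Cells buried in the matrix become osteocytes, which switch on Dmp1 and Phex and, when mature, Sost and Fgf23. In a callus, bone forms both directly from the periosteum and by replacement of a cartilage template whose hypertrophic chondrocytes express Col10a1.

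The osteoblasts were a small share of either library, 0.899% (0.746 to 1.07) of kept barcodes in MGJ and 0.218% (0.127 to 0.348) in MGJ2. Per osteoblast, the median was 15043 UMIs (2008 to 58914) and 3269 genes in MGJ, and 26491 UMIs (6222 to 46925) and 4142 genes in MGJ2. Mitochondrial UMIs had a median of 4.42% and 4.51%. MGJ held 135304426 UMIs over 14295 barcodes and MGJ2 held 61130834 over 8009, and 19 barcode sequences occurred in both libraries, none of them in an osteoblast. These shares describe the captured cells and not the make-up of the callus.

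Col1a1 reached 247 UMIs per 10000 at the median of the MGJ osteoblasts (53.0 to 1143) and 251 at that of the MGJ2 osteoblasts (58.2 to 1413). The sum of the 5 osteoblast markers had a median of 95.4 (20.9 to 957) and 93.4 (20.9 to 619). Most of that sum was Ibsp, with lowest 4.05, median 87.6 and highest 945 per 10000 in MGJ. In contrast, Ifitm5, an osteoblast membrane protein, was found in 45 of 121 and 6 of 17 cells. Alpl was found in 109 of 121 and all 17.

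For each limit, the nearest cells inside and outside it were taken among barcodes that met every other condition, so a gap at 1 limit also depends on the remaining conditions. Those at the Col1a1 limit lay at 53.0 and 49.5 per 10000 in MGJ, and those at the marker limit at 20.9 and 19.3. At the Col2a1 limit they lay at 93.7 and 100.2. At the Col10a1 limit they lay at 38.4 and 275, where a single barcode of MGJ stood outside. The corresponding pairs in MGJ2 were 58.2 and 40.1 for Col1a1, 20.9 and 18.6 for the marker sum, 62.3 and 105.1 for Col2a1, and 52.2 and 174 for Col10a1. The immune sum ran to 33.9 inside and began at 61.2 outside in MGJ (3.44 and 60.5 in MGJ2), and the smallest osteoblast of MGJ held 2008 UMIs against 1752 in the largest that was too small.

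A further 205 barcodes of MGJ and 22 of MGJ2 met every condition but the Col2a1 limit, more than the osteoblasts themselves. These cells carried the osteoblast markers together with cartilage collagen: their summed Ibsp level was 15478 UMIs per 1000000 UMIs of the class (CPM) against 17326 CPM in osteoblasts of MGJ. Another 1189 barcodes of MGJ and 10 of MGJ2 failed the marker sum alone. By comparison, Col10a1 alone kept out 1 and 3 barcodes.

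**Figure D1:**
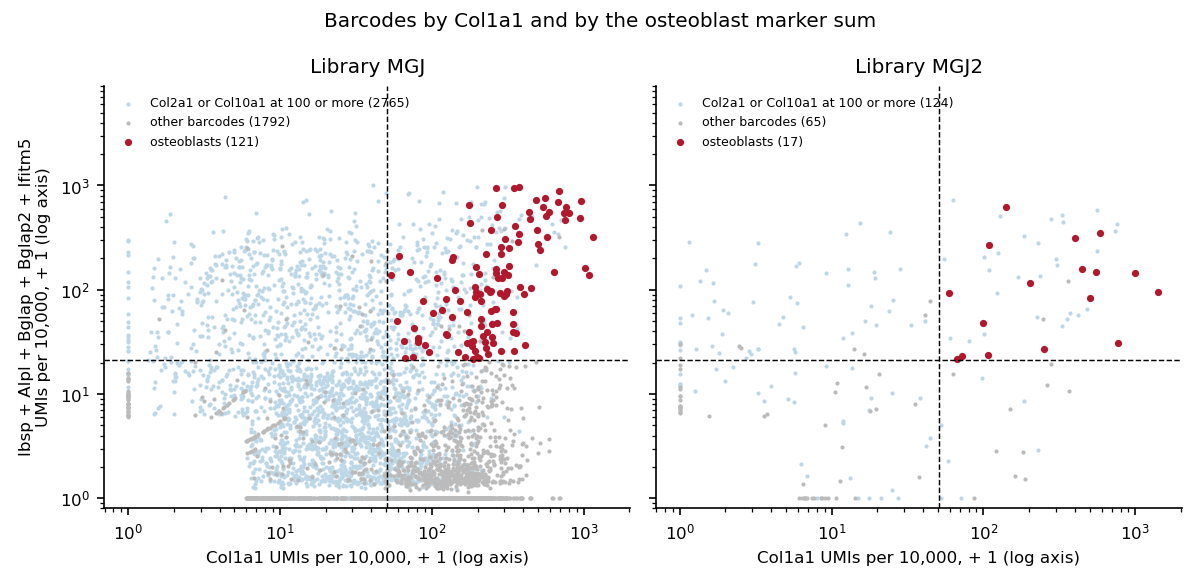
Each point is a barcode with at least 2000 UMIs and at least 5 UMIs per 10000 of Col1a1 or of the marker sum, placed by Col1a1 (horizontal) and by Ibsp, Alpl, Bglap, Bglap2 and Ifitm5 together (vertical), both as UMIs per 10000 plus 1 on log axes, with dashed lines at the limits of 50 and 20. The 121 osteoblasts of MGJ and the 17 of MGJ2 (red) share the upper right corner with barcodes at or above 100 Col2a1 or Col10a1 (blue).

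The label was checked on osteoblast genes that the rule did not use. Col1a2, the partner chain of type I collagen, was present in every osteoblast, with lowest 56, median 241 and highest 1284 UMIs per 10000 in MGJ and lowest 56.2, median 278 and highest 1185 in MGJ2. Runx2 was detected in 83 of 121 and 15 of 17 cells, and Sp7 in 49 and 12. Detection depends on depth, so each cell was also thinned to 2000 UMIs and set beside neutrophils (S100a8 and S100a9 at least 200 and Col1a1 below 50 per 10000), which should lack these genes and which had a median of 3316.5 UMIs in MGJ and 4207 in MGJ2.

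After thinning, Sp7 was found in 13.2% of MGJ osteoblasts and 0.0885% of neutrophils (40.5% and 0.752% before thinning). Runx2 stood at 19% and 3.94% (68.6% and 8.58% before). Ifitm5, at 22.3% and 1.55% (37.2% and 2.39% before), was used by the rule and is given as a description only. Both lineage factors were thus more frequent in osteoblasts than in the reference. Spp1 RNA was widespread in the reference too, at 78.9% of neutrophils against 92.6% of osteoblasts (86.5% and 100% before), so its presence in a cell says little here. In MGJ2 the thinned shares were 35.3% and 7.65% for Runx2 (88.2% and 16.9% before) and 11.8% (2 of 17 cells) and 0.0602% for Sp7 (70.6% and 0.181% before).

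Markers of most other cell types were low, except for the tendon list, most of which was Fmod in MGJ. The 9 neutrophil markers summed to 371 CPM in MGJ osteoblasts and 176 CPM in those of MGJ2, against 228038 and 240154 CPM in the reference, and S100a8 and S100a9 were limited by the rule. Endothelial markers summed to 20.5 and 10.4 CPM, erythroid markers to 29 and 0, and lymphoid markers to 22.5 and 12.9 CPM. The 9 macrophage and monocyte markers, 3 of them limited by the rule, summed to 126 and 41.4 CPM. Of the osteoclast list, Ctsk gave 268 of 291 CPM in MGJ and 158 of 189 in MGJ2, while Oscar and Calcr were at 0 in both. Each fusion gene was at 0 in 1 library and detected in the other, Dcstamp at 0 in MGJ and Ocstamp at 0 in MGJ2. Pericyte and muscle markers came to 238 and 308 CPM, of which the proteoglycan Cspg4 gave 232 and 305, and Myh11, Pax7 and Myod1 were at 0 in both. The 6 tendon markers summed to 1069 CPM in MGJ osteoblasts, against 575 in Col10a1 cells, 2019 in other Col1a1 cells (both classes are defined below) and 962 in all other kept barcodes, and to 380.4 CPM in MGJ2. Without the 2 osteocalcin-rich cells described below, Fmod stood at 920 CPM in MGJ osteoblasts, Thbs4 at 65.3, Tnmd at 48.8 and Scx at 39.6. Of 5 measured against Col10a1 cells of MGJ, Tnmd, Thbs4 and Scx were higher by at least 2-fold and none was lower. Fmod was within 2-fold. The part of tendon cells in these levels was not tested.

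Scrublet called no doublet among the kept barcodes of MGJ, so it did not work there, and called 223 in MGJ2, none an osteoblast. No barcode was removed as a doublet. Among as many top-scoring barcodes as the expected doublet rate gives, 24 of 1449 in MGJ and 2 of 487 in MGJ2 were osteoblasts.

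Osteocalcin, an abundant non-collagen protein of mature bone, was concentrated in very few osteoblasts. Its genes Bglap and Bglap2 lie 1 after the other on chromosome 3 (GRCm38, 88383501 to 88384464 and 88377736 to 88378699, both minus strand) and are near-identical copies, so how their reads were split is uncertain and they were added together. In MGJ, 100 of 121 osteoblasts had no osteocalcin UMI, and 2 cells held 3311 of the 3521 UMIs (94%), at 704 and 589 per 10000 against 47.7 in the next. Of the MGJ2 osteoblasts, 12 of 17 had none and 2 cells held 96.3% of 108 UMIs, at 25 and 23.1 per 10000. In the remaining cells the marker sum came mostly from Ibsp.

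The 2 osteocalcin-rich cells of MGJ were ordinary in depth, with 23563 and 28046 UMIs, 4107 and 4051 genes and 5.22% and 4.35% mitochondrial UMIs. They differed from each other. The first held 10.6 Ibsp and 28.4 Spp1 UMIs per 10000 and no Dmp1, Phex or Sp7 UMI. The second held 271 Ibsp, 384 Spp1, 12.8 Dmp1 and 7.13 Phex UMIs per 10000. Both exceeded the median of the remaining osteoblasts in Col1a2, with 545 and 581 against 234 per 10000.

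**Figure D2:**
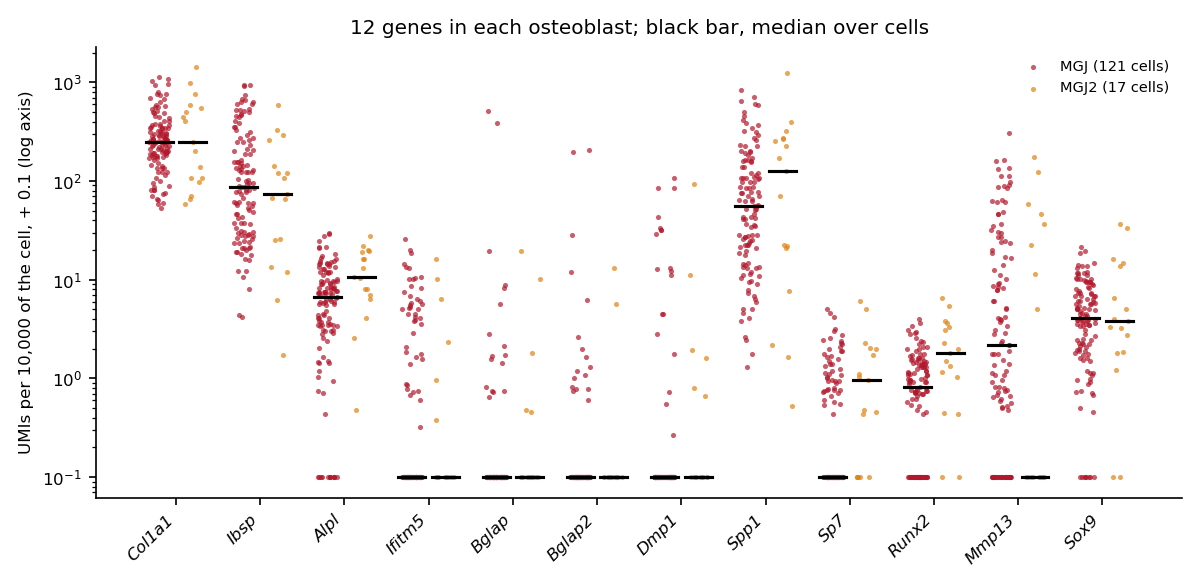
Each point is an osteoblast and the vertical axis gives its UMIs per 10000 plus 0.1 on a log axis for 12 genes, with the median over cells as a black bar, MGJ in red (121 cells) and MGJ2 in orange (17 cells). Ibsp ran from 4.05 to 945 in MGJ, whereas Bglap, Bglap2, Dmp1 and Ifitm5 were at 0 in most cells.

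Promoters of secreted bone matrix genes are shown next because these genes carry the description of the class. The stretch from 200 to 81 bases before the start site is given 5′ to 3′ on the gene's strand, from RefSeq on GRCm38.p6, in lower case with ACCACA, a core motif bound by Runx factors, in capitals.
Spp1, chr5:104434911-104435030, plus strand: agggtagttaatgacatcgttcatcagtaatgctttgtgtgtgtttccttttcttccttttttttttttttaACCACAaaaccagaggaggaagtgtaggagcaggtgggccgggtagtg
Ibsp, chr5:104299087-104299206, plus strand: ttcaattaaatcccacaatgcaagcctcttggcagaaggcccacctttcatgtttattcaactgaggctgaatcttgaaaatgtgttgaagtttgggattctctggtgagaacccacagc
Bglap, chr3:88384547-88384666, minus strand: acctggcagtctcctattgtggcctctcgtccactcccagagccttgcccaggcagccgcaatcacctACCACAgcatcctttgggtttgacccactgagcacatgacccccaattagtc
Ifitm5, chr7:140950324-140950443, minus strand: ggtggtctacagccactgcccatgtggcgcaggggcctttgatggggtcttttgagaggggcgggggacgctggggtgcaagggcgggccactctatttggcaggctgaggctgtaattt
Mmp13, chr9:7272314-7272433, plus strand: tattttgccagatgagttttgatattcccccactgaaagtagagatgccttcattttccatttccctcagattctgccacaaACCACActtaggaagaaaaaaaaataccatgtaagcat
The motif began 128 bases before the start of Spp1, 132 before that of Bglap and 118 before that of Mmp13, the collagenase of hypertrophic cartilage and bone. It was searched on both strands (ACCACA and its complement TGTGGT) in the 250 bases before each start site, where 4614 of 32851 RefSeq promoters (14%) and 4303 of 27025 genes (15.9%) held it. Of the 28 bone matrix genes, 21 had a promoter entry and 6 of these (28.6%) held it, namely Spp1, Bglap, Dmp1, Mepe, Enpp1 and Slc20a1. The windows of Ibsp and Ifitm5 did not contain these letters. Of the 325 listed genes, 238 had an entry.

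To place the osteoblasts among the other matrix-forming cells, their summed UMIs were compared within each library with those of Col10a1 cells (Col10a1 at least 100 per 10000, 524 cells in MGJ and 57 in MGJ2). Within MGJ they were also compared with 1005 other Col1a1 cells, which met the Col1a1 and cartilage limits but fell below the marker sum of 20 and held no Ptprc, Pecam1 or Cdh5 UMI. MGJ2 held 9 such cells, too few to use. A gene was counted as higher or lower from 2-fold, among genes with at least 50 UMIs in both classes together. Against Col10a1 cells, 1314 of 9471 genes (13.9%) were higher and 1060 (11.2%) lower in MGJ, and 385 (8.50%) higher and 505 (11.2%) lower of 4529 in MGJ2. Against other Col1a1 cells, 445 of 10647 genes (4.18%) were higher and 982 (9.22%) lower. These shares are the background against which each gene list is read, and the UMI counts are not scaled to transcript length, so levels are compared between classes and not between genes.

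**Figure D3:**
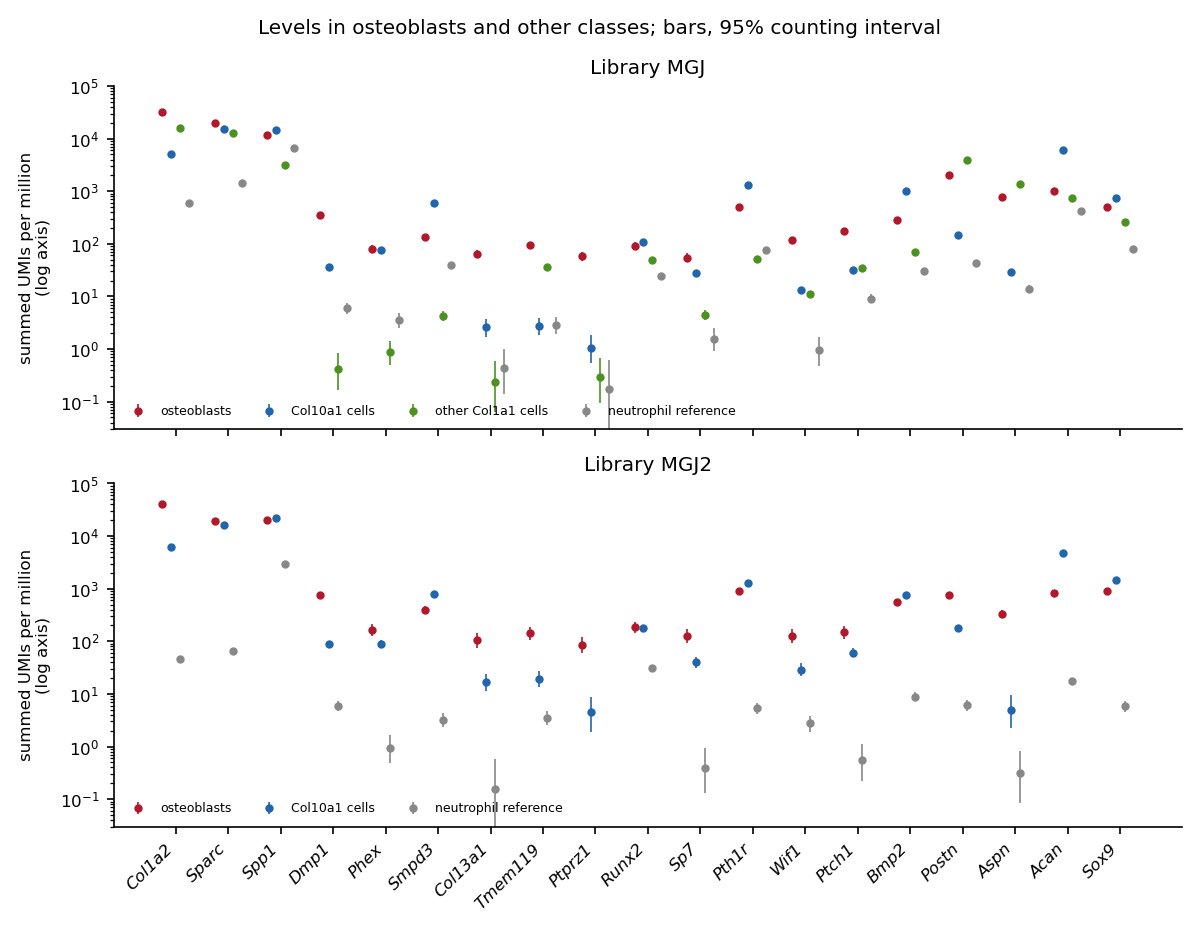
Summed UMIs per 1000000 (log axis) of 19 genes in osteoblasts (red), Col10a1 cells (blue), other Col1a1 cells (green, MGJ only) and neutrophils (grey), with 95% counting intervals as bars and classes without a UMI left out. Dmp1, Col13a1 and Ptprz1 were above every other class shown in both libraries, whereas Runx2, Phex and Spp1 were close to or below the Col10a1 cells in MGJ.

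Several bone matrix genes were higher in osteoblasts than in either class, and a few were as high or higher in Col10a1 cells. Of 19 measured members not used by the rule, 9 were higher and 3 lower than in Col10a1 cells of MGJ (median log2 ratio 0.72 against 0.17 over all genes). In MGJ2, 6 of 17 were higher and 2 lower (median 0.37 against 0.01). Relative to other Col1a1 cells, 10 of 20 were higher and none lower (median 0.83 against -0.09). The barcodes kept out by the Col2a1 limit alone were not part of these comparisons. All 28 bone matrix genes, those of the rule included, summed to 98672 CPM there against 125727 in osteoblasts of MGJ. In MGJ2 the sums were 145471 and 153214 CPM.

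Col1a2 reached 31855 CPM (31608 to 32104) in osteoblasts, 5089 in Col10a1 cells and 15822 in other Col1a1 cells of MGJ, a ratio of 6.26-fold (6.19 to 6.33) and 2.01-fold (2.0 to 2.03), the latter 1.92 with each cell weighted equally. Its ratio to Col10a1 cells in MGJ2 was 6.66-fold (6.5 to 6.82). Sparc (osteonectin) was within 2-fold of both classes, at 19859.8, 15314 and 12739 CPM. Spp1 was as abundant in Col10a1 cells, with 11679.9 CPM in osteoblasts and 14870 in Col10a1 cells of MGJ, but 3.66-fold (3.6 to 3.71) higher than in other Col1a1 cells. The MGJ2 level of Spp1, 20491 CPM, owed 44.5% to 1 cell and was 12265 without it.

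Some less abundant genes of the bone cell surface and matrix were higher than in both classes. Tmem119, a membrane protein of osteoblasts, stood at 95.6 CPM (82.5 to 110.2) against 2.75 in Col10a1 cells and 35.7 in other Col1a1 cells. Col13a1, a membrane collagen, stood at 64.6 CPM against 2.57 and 0.234, and Col24a1, a fibrillar collagen of forming bone, at 41.1 against 1.6 and 12.5. These came from many cells, with 55, 35 and 41 of 121 carrying a UMI. MGJ2 gave 7.29-fold (4.69 to 11.5) for Tmem119 and 6.19-fold (3.76 to 10.3) for Col13a1 against Col10a1 cells.

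Smpd3 and Fam20c, which act on the mineral or its proteins, were lower than in Col10a1 cells of MGJ. In MGJ2 neither was lower by 2-fold. Smpd3, a sphingomyelinase needed for bone mineral, had 134 CPM in osteoblasts and 608 in Col10a1 cells of MGJ, a ratio of 0.22 (0.194 to 0.249), but 4.27 in other Col1a1 cells. Fam20c, the kinase of secreted matrix proteins, had 94.6, 197 and 13.6 CPM, and its ratio to Col10a1 cells was 0.65 with a marker sum of at least 50. Matrix Gla protein (Mgp), an inhibitor of mineralization, was lower than in Col10a1 cells at 1123 against 9187 CPM in MGJ and 352 against 11878 in MGJ2, where 1 cell gave 60.3% of the UMIs. The phosphatase Phospho1 was barely detected, with 1 UMI in MGJ and 2 in MGJ2.

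Genes for collagen folding and secretion were level with or above Col10a1 cells. Against Col10a1 cells, 8 of 26 were higher and none lower in MGJ, and 10 of 23 higher and none lower in MGJ2. Serpinh1, the collagen chaperone, was 2.01-fold (1.94 to 2.08) and 2.23-fold (2.05 to 2.43) higher, and 1.97 in MGJ with collagens left out of the total. Pcolce, the enhancer of procollagen cleavage, was 7.57-fold (6.94 to 8.26) and 10.4-fold (8.08 to 13.5), and Creb3l1, the factor that drives the secretory program of osteoblasts, 3.31-fold (2.92 to 3.75) and 3.15-fold (2.52 to 3.92). No such gap was seen against other Col1a1 cells, where none of 26 was higher and only Loxl1 was lower, which came to 0.517 times with each cell weighted equally. Of 17 genes of the unfolded protein response and endoplasmic reticulum, 1 (Sec61a1) was higher than in Col10a1 cells of MGJ and 2 (Sec61a1 and Sdf2l1) in MGJ2.

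Among the transcription factors, Sp7 was far above other Col1a1 cells, whereas Runx2 was below 2-fold against both classes. Sp7 had 54.6 CPM (44.8 to 65.8) against 27.5 and 4.44, which is 1.98-fold (1.58 to 2.48) and 12.3-fold (9.08 to 16.7). Runx2 was at 92.1 CPM (79.3 to 106) in osteoblasts and 106 CPM in Col10a1 cells, with ratios of 0.868 (0.739 to 1.01) in MGJ and 1.03 (0.785 to 1.33) in MGJ2. Cbfb, the partner of Runx2, and Twist1 were higher by at least 2-fold than in Col10a1 cells of both libraries, Zeb2 in MGJ and Sp7 in MGJ2, and no measured factor was lower. With each cell weighted equally Cbfb came to 1.96 in MGJ2 and Zeb2 to 1.94 in MGJ.

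Against other Col1a1 cells, Sp7, Dlx5, Mef2c and Runx3 were among the factors that were higher, and Twist2 was lower. Mef2c, a regulator of chondrocyte hypertrophy and of osteocyte Sost, was 12.2-fold (10.4 to 14.3) higher, at 193 against 15.8 CPM. Sox9, the cartilage master factor, had 505 CPM in osteoblasts, 728 in Col10a1 cells and 257 in other Col1a1 cells and was found in 113 of 121 osteoblasts. Msx2 and the Wnt effector Lef1 had no UMI in any osteoblast of either library, which allows up to 1.5 CPM in MGJ and 7.76 CPM in MGJ2.

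Genes that mark the passage to osteocytes were present in a minority of cells. Dmp1 was found in 19 of 121 cells at 358 CPM (332 to 385) in MGJ, 9.75-fold (8.63 to 11) above Col10a1 cells and 875-fold (422 to 2184) above other Col1a1 cells. In MGJ2 it was found in 6 of 17 cells at 774 CPM, but 1 cell gave 89% of its UMIs and the level without that cell was 92.2 CPM, beside 88.1 in Col10a1 cells. With Col2a1 and Col10a1 both below 20 per 10000 the MGJ2 ratio of Dmp1 turned to 0.309. Phex, the endopeptidase that restrains Fgf23, was found in 23 cells at 80.1 CPM, near the 75.1 of Col10a1 cells. Ptprz1, a receptor phosphatase, was higher than in both classes, at 57.6 against 1.06 and 0.292 CPM. The mature osteocyte genes Sost and Fgf23 had no UMI in any osteoblast, and Mepe had 8 UMIs in 2 cells of MGJ and 0 in MGJ2.

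Progenitor and periosteal genes were mostly higher in osteoblasts than in Col10a1 cells. Of 12 measured, 10 were higher and none lower in MGJ (median log2 ratio 2.28), and 6 of 7 were higher in MGJ2 (median 2.09). Periostin (Postn), a matrix protein of the periosteum, had 2023 CPM (1961 to 2086) against 146 CPM, asporin (Aspn) 788 against 29.4 and tenascin C (Tnc) 602 against 27.8. The same genes were lower than in other Col1a1 cells or close to them, with Postn at 0.508 times (0.492 to 0.524), Aspn at 0.584 times (0.554 to 0.614) and Tnc at 0.785 times (0.739 to 0.832) their level. Against those cells 2 of 15 were higher (Gli1, Nt5e) and 6 lower (Prrx1, Ly6a, Cd34, Cxcl12, Acta2, Thy1), Prrx1 only narrowly, at 0.507 times with collagens left out of the total. With a marker sum of at least 50, the ratios of Prrx1 and Cxcl12 to Col10a1 cells of MGJ came to 1.78 and 1.78. In MGJ2, 1 cell gave 71.3% of the Postn UMIs and 57.9% of the Aspn UMIs, and without those cells the levels were 235 and 149.7 CPM, against 176 and 5.02 in Col10a1 cells. With a marker sum of at least 50 the MGJ2 ratio of Postn to Col10a1 cells turned to 0.703.

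Among signalling genes, the hedgehog receptor Ptch1 and the Wnt inhibitor Wif1 were higher in osteoblasts than in both classes. Ptch1, which is itself a hedgehog target, was 5.41-fold (4.66 to 6.29) above Col10a1 cells and 4.94-fold (4.31 to 5.64) above other Col1a1 cells in MGJ, and 2.43-fold (1.73 to 3.37) above Col10a1 cells in MGJ2, where it came to 1.89 with at most 10% mitochondrial UMIs. Ihh, its ligand, was nearly absent, with 2 UMIs in MGJ osteoblasts and 229 CPM in Col10a1 cells. Wif1, a secreted Wnt inhibitor, stood at 120.2 CPM (105 to 136) against 13 and 11.2, and at 127 against 29 CPM in MGJ2. Of the Wnt list, 7 of 16 genes were higher and Wnt5b was lower than in Col10a1 cells of MGJ, and 2 of 6 were higher and Wnt5b lower in MGJ2 (0.584 times with each cell weighted equally).

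Pth1r, the parathyroid hormone receptor through which bone formation is stimulated, was found in 109 of 121 and all 17 osteoblasts. Its level, 491 CPM (461 to 523) in MGJ, was 0.374 times (0.35 to 0.399) that of Col10a1 cells and 9.48-fold (8.65 to 10.4) that of other Col1a1 cells. In MGJ2 it was not lower than in Col10a1 cells by 2-fold. Bmp2 behaved alike, at 281 CPM in osteoblasts, 995 in Col10a1 cells and 68.6 in other Col1a1 cells. In the BMP and TGF-beta list, 8 of 19 were higher and 2 (Bmp2, Nog) lower than in Col10a1 cells of MGJ, while in MGJ2 3 of 16 were higher and only Nog was lower. The osteoclast activator RANKL (Tnfsf11) stood at 95.6 CPM (82.5 to 110.2) and its decoy receptor OPG (Tnfrsf11b) at 149 CPM (132 to 167) in MGJ, against 11.9 and 375 CPM in Col10a1 cells. A single cell gave 22% of the Tnfsf11 UMIs, and 75.2 CPM remained without it. In MGJ2, Tnfrsf11b was not lower than in Col10a1 cells by 2-fold. Among mechanosensing genes, Gja1, the gap junction protein that couples bone cells, was 2.17-fold (2.01 to 2.35) higher than in Col10a1 cells of MGJ and 2.85-fold (2.43 to 3.33) in MGJ2 (1.97 in MGJ with each cell weighted equally), and Piezo1 was found in 75 of 121 cells at 87.6 CPM against 103 and 110.1.

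Cartilage RNA in osteoblasts lay between the levels of the other classes. Of 21 cartilage genes other than Col2a1 and Col10a1, 15 were lower than in Col10a1 cells of MGJ and 13 in MGJ2, as the limits on Col2a1 and Col10a1 would select. The aggregate level of all 23 cartilage genes was 12727 CPM in MGJ osteoblasts and 137956 CPM in Col10a1 cells. It includes Col2a1 and Col10a1, which were used to choose the cells, so it only describes the classes. Compared with other Col1a1 cells, however, 13 of 19 genes outside the rule were higher and none lower. Among them were Hapln1 at 3.69-fold (3.34 to 4.07) and Comp at 2.38-fold (2.3 to 2.46). These came to 1.7 and 1.32 when Col2a1 and Col10a1 were both held below 20 per 10000. The same genes were present in the neutrophil reference of MGJ, with 422 CPM of Hapln1 and 842 of Comp against 293 and 2286 in osteoblasts, and the part of free RNA in their level was not tested.

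The genes with the largest ratios, on a list or not, were named by rank. Against Col10a1 cells of MGJ the 10 highest were Mamdc2, Kazald1, Serpinb6b, Car3, Fat3, Mme, Lrrc17, Ptprz1, Hhip and Insc. Mamdc2, a matrix protein, had 74.6 against 0.355 CPM, and the hedgehog inhibitor and target Hhip 75.6 against 1.51 CPM. Mme, a surface peptidase of stromal and bone cells, was 59.1-fold (35.9 to 104) and 101-fold (32.9 to 500.0) higher in the 2 libraries. The MGJ2 list added Gas1, Adamts2, Cxcl12, Col15a1, Aspn, Igfbp5 and Tnc, but Gas1 was found in 2 cells and Cxcl12 in 3, and 1 cell gave 90.1% of the Cxcl12 UMIs, with 23.7 CPM left without it. Hhip had no UMI in the Col10a1 cells of MGJ2 and was at least 89.7-fold higher when 3 counts are taken as the limit of detection there, or 70.6-fold at the lower limit of the osteoblast count.

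At the other end, Krt16, Fxyd3, Cds1, Ihh, Matn1, Krtap17-1, Il17b, Ocm, Ffar4 and Nog were lowest in MGJ, each with 4 or fewer UMIs over all 121 osteoblasts. Fxyd3, an ion pump regulator, had no UMI in those cells and 362 CPM in Col10a1 cells. In MGJ2, Cnmd (chondromodulin), Fxyd3, Dhx58os, Matn3, Fam43a, Mgp, AW112010, Mia, Ihh and F3 were lowest. Against other Col1a1 cells, the highest were Dmp1, Col13a1, Car3, Ptprz1, Slc13a5, 4631405J19Rik, Phex, Cadm1, Fat3 and Panx3. Slc13a5, the citrate carrier of bone cells, had 75.1 against 0.76 CPM and Panx3, a channel protein of hypertrophic cartilage and bone, 91.1 against 2.1. Car3 had no UMI in those cells and was at least 239.8-fold higher by the same limit, or 191-fold at the lower limit of the osteoblast count. The lowest were Gzme, Il33, Plac8, Pi16, Cnn1, Ccl11, Vtn, Clec3b, Cxcl14 and Cfb, several of them known from connective tissue fibroblasts, such as Pi16 at 1.0 against 43.1 CPM.

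**Figure D4:**
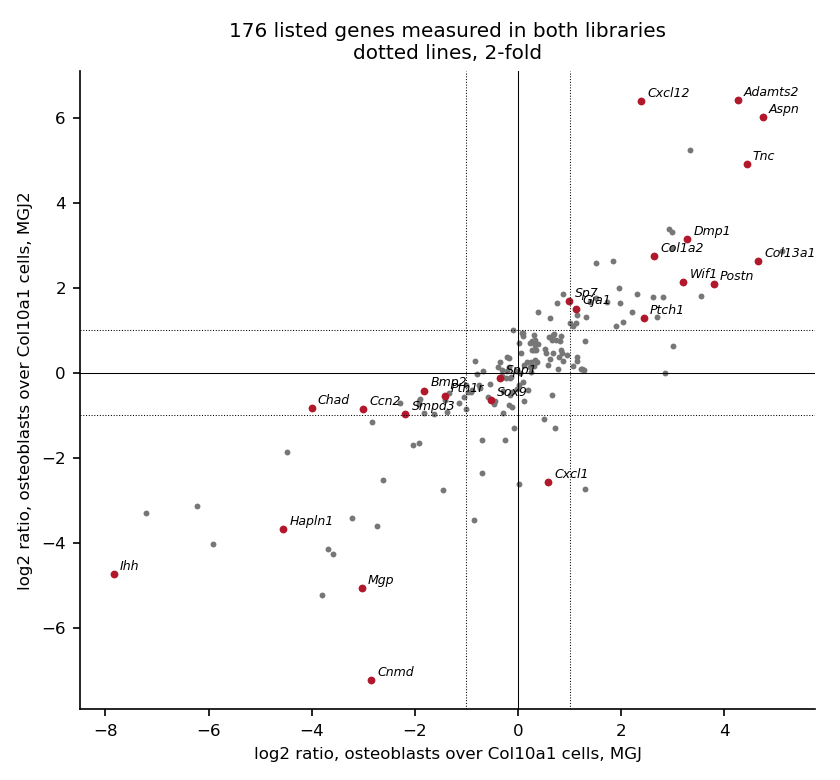
Log2 ratio of osteoblasts to Col10a1 cells in MGJ (horizontal) and MGJ2 (vertical) for the 176 listed genes, other than those of the rule, with at least 50 UMIs over both classes in both libraries, with dotted lines at 2-fold. The ratio was above 1 in both libraries for 89 genes and below 1 in both for 64, and of the 23 with opposite signs 7 were past 2-fold in either library.

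Among the osteoblasts themselves, the variation was widest in a few matrix genes. After thinning to 2000 UMIs, the ratio of variance to mean over the MGJ cells was highest for Bglap (79.2), Malat1 (74.7), Ibsp (53.8) and Spp1 (42.2), followed by Hp, Bglap2, Col1a2, Col1a1, Saa3 and Mmp13. In MGJ2 the order was Spp1, Col1a1, Col1a2, Ibsp, Cxcl12, Cst3, Ecrg4, Comp, Tnc and Malat1. Mmp13 ranged from 0 to 309 UMIs per 10000 with a median of 2.08 in MGJ, and 90 of 121 cells carried it.

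The MGJ osteoblasts were divided into tertiles by the marker sum to follow this variation. A tertile is a range and not a cell type, and the sum ran from 20.9 to 51 in the lower 40 cells, 53.6 to 163 in the middle 41 and 169 to 957 in the upper 40. Median depth was 16256, 14476 and 14828 UMIs. The sum chose the tertiles, so Ibsp (2458, 9537 and 41607 CPM) and Ifitm5 (16, 129 and 608 CPM) only describe them. Between the upper and the lower tertile, 105 of 3172 genes (3.31%) were higher and 343 (10.8%) lower by at least 2-fold.

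Several bone matrix and osteocyte genes were higher in the upper than in the lower tertile, and part of them only against cells with a marker sum below 50. Of 18 bone matrix genes not used by the rule, 8 were higher (Col1a2, Spp1, Dmp1, Smpd3, Phex, Fam20c, Col13a1, Col24a1) and 2 lower (Mgp, Ank) in the upper tertile, and of 5 osteocyte genes 4 were higher (Dmp1, Phex, Ptprz1, Irx5). Col1a2 went from 19706 to 28729 and 48265 CPM. Dmp1 had no UMI in the lower tertile, 716 CPM in the middle and 364 in the upper. When the tertiles were formed again from cells with a marker sum of at least 50, the upper to lower ratio was 1.03 for Spp1, 1.06 for Fam20c, 1.41 for Phex and 0.78 for Dmp1, so that these 4 were no longer higher by 2-fold. Ank came within 2-fold under 6 alternatives, at 0.509 to 0.684 times. Ptprz1 went from 1.46 to 40 and 137 CPM. Pth1r and Wif1 followed, at 2.83-fold (2.39 to 3.35) and 4.68-fold (3.22 to 6.97), and Pth1r came to 1.94 with a marker sum of at least 50.

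Most progenitor and periosteal genes took the opposite course. Of 10 progenitor and periosteal genes, 8 were lower in the upper tertile and only Nt5e was higher, which came to 1.11 with a marker sum of at least 50. Postn went from 2669 and 2785 to 519.9 CPM, Aspn from 1163 and 1063 to 91.1, and the growth factor Igf1 from 439.9 and 132 to 3.14. Tnfsf11 was at 0.143 times (0.079 to 0.241) the level of the lower tertile while Tnfrsf11b stood at 2.26-fold (1.66 to 3.11) (1.4 with a marker sum of at least 50). The chemokines Cxcl1 and Ccl2 were at 0.398 times (0.366 to 0.432) and 0.284 times (0.244 to 0.329). The acute phase genes Saa3 and Lcn2 had no settled direction, at 0.471 and 0.468 times but 1.02 and 1.55 with both cartilage limits at 20, and Saa3 at 10.7 with a marker sum of at least 50. Of 16 unfolded protein response genes, 6 were lower and none higher, including the chaperone Hspa5 at 1065, 954 and 449 CPM.

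The lineage factors Runx2 and Sp7 were within 2-fold between the upper and the lower tertile. Of 9 measured transcription factors, only Mef2c was higher by 2-fold and none was lower. Runx2 was at 101, 93.4 and 81.7 CPM and Sp7 at 43.7, 51.9 and 69.1, with upper to lower ratios of 0.813 (0.556 to 1.18) and 1.58 (0.972 to 2.61) whose intervals include 1. Piezo1 was at 87.4, 87.5 and 88 CPM. By rank, the highest genes of the upper tertile were Pcsk6, Ptprz1, Dmp1, Phex, Slc13a5, Kazald1, Col22a1, Gm41724, Cadm1 and Col13a1. The lowest were Igf1, Apod, Sbsn, Cd74, Ccl4, H2-Eb1, Mest, Pamr1, Ptn and Col8a1. Cd74 and H2-Eb1 belong to antigen presentation by myeloid and B cells, and Cd74 was found in 19 osteoblasts of MGJ. Whether these UMIs came from other cells was not tested.

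**Figure D5:**
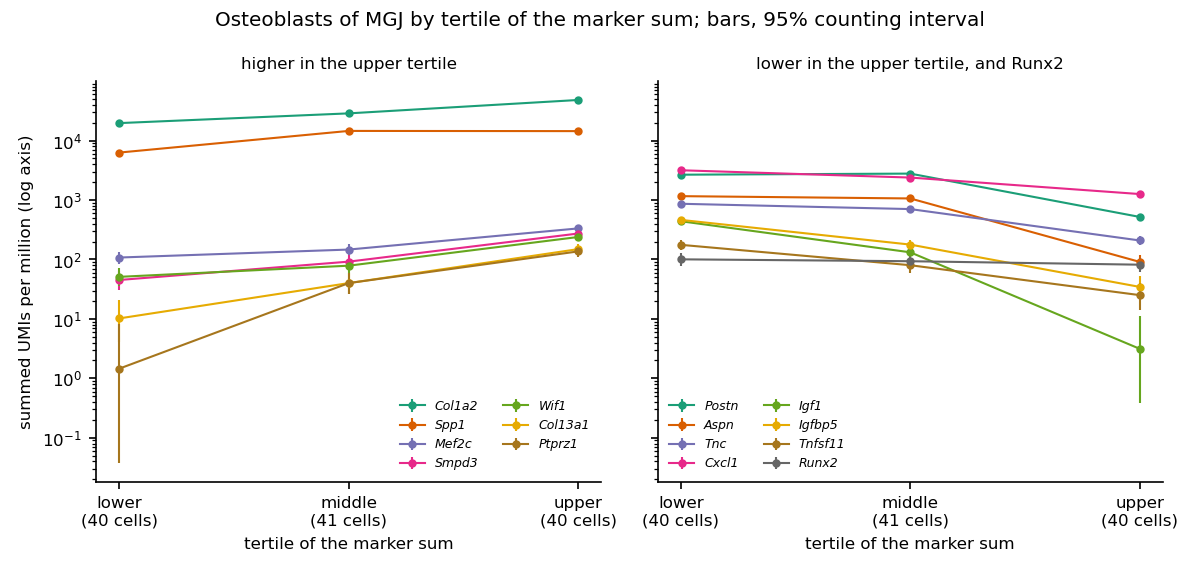
Summed UMIs per 1000000 (log axis) of the MGJ osteoblasts in the lower, middle and upper tertile of the marker sum, with 95% counting intervals as bars. Col13a1 and Ptprz1 were highest in the upper tertile, Postn, Aspn and Igf1 were lowest there, and Runx2 stayed between 81.7 and 101 CPM.

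Between the 2 libraries, chemokine and tendon genes were among those lower in MGJ2 osteoblasts and lineage factors among those higher. Of 4905 genes, 236 (4.81%) were higher and 390 (7.95%) lower by at least 2-fold in MGJ2, where only 17 cells stood behind each value. The matrix genes Col1a2, Sparc and Col5a2 were within 2-fold, and Dmp1, Smpd3, Phex and Fam20c were higher in MGJ2 (Mgp lower), 4 and 1 of 18 bone matrix genes. Without the single cell that carried most of the MGJ2 Dmp1 UMIs, Dmp1 was lower there, at 92.2 against 358 CPM, and Phex was at 83.8 against 80.1 CPM without its highest cell. Runx2 and Sp7 were 2.02-fold (1.52 to 2.67) and 2.32-fold (1.62 to 3.28) higher. With Col2a1 and Col10a1 both below 20 per 10000 the ratio of Runx2 was 1.36, that of Dmp1 0.0616, that of Phex 0.757, that of Fam20c 1.13 and that of Mgp 0.737. The ratio of Runx2 in Col10a1 cells was 1.71 and that of Sp7 1.44.

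Chemokine RNA stood out on the MGJ side. Cxcl1 was at 2298 CPM (2232 to 2365) in MGJ and 20.7 CPM (8.94 to 40.8) in MGJ2, found in 102 of 121 and 5 of 17 osteoblasts. Ccl2 was at 999 and 46.6 CPM. The other classes moved the same way: in Col10a1 cells Cxcl1 had 1525 and 123 CPM, and in neutrophils 674 and 12.8. All 4 measured tendon genes (Tnmd, Thbs4, Scx, Fmod) were lower in MGJ2 osteoblasts. In the other direction Ccn2, a target of mechanical and TGF-beta signals, was at 269.8 and 2032 CPM and Chad at 53.6 and 882, with 56.9% of the MGJ2 Chad UMIs in 1 cell. Without their highest cells the MGJ2 levels were 1463 CPM for Ccn2 and 413 for Chad. With both cartilage limits at 20 per 10000 the ratio of Ccn2 fell from 7.53 to 1.58.

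The osteoclast and vessel signals divided evenly, with 5 of 10 higher in MGJ2 (Tnfrsf11b, Csf1, Cxcl12, Kitl, Vegfa) and 5 lower (Tnfsf11, Efnb2, Lcn2, Cxcl1, Ccl2). Tnfrsf11b was 3.39-fold (2.82 to 4.08) and Vegfa 3.4-fold (2.86 to 4.05) higher, while Tnfsf11 was at 0.433 times (0.243 to 0.722) its MGJ level. The ratio of Tnfrsf11b turned to 0.751 and that of Vegfa came to 1.82 with both cartilage limits at 20. That of Tnfsf11 came to 0.833 with a marker sum of at least 50, that of Kitl to 1.74 and that of Cxcl12 to 0.553 with at most 10% mitochondrial UMIs. By rank, Limch1, F13a1, Chad, Cilp2, Enc1, Gas1, Lars2, Ccn2, Gm42418 and Gm42679 were highest in MGJ2 and Cxcl1, Cnmd, Saa3, Il1rl1, Cxcl2, Ly6a, Ccl2, Hspa1b, Ccl3 and Ccl7 lowest. Of the genes called in osteoblasts, 62 of 228 measured in Col10a1 cells (27.2%) were also higher there by 2-fold and 76 of 380 (20%) lower. In neutrophils the numbers were 38 of 209 (18.2%) and 121 of 348 (34.8%). The share past 2-fold over all genes measured in these classes was not counted, so these overlaps are a description only. Day, mouse and library cannot be told apart in these values.

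Of the hormone and growth factor receptors and ligands, 6 of 15 were higher and 3 lower than in Col10a1 cells of MGJ, and 2 of 11 (Fgfr2, Igfbp5) higher and none lower in MGJ2. The osteoclast and vessel signals gave 6 higher and 3 lower of 13 in MGJ, and 1 each of 6 in MGJ2 (Cxcl12 higher, Cxcl1 lower). Among mechanosensing genes, 5 of 16 were higher and 4 lower in MGJ, and 2 of 15 higher (Pkd1, Gja1) and 2 lower (Trpv4, Cav1) in MGJ2. Cell cycle genes were scarce, with Mki67 found in 8 of 121 and 2 of 17 osteoblasts at 13.5 and 5.18 CPM, beside 74.2 and 218 CPM in neutrophils. Of 9 measured, 5 were higher and 1 lower than in Col10a1 cells of MGJ, whereas of 2 measured in MGJ2 none was higher and 1 (Pcna) was lower. Against other Col1a1 cells of MGJ, none of 14 was higher and 4 were lower. None of 14 glycolysis and glutamine genes was higher than in Col10a1 cells of MGJ and 2 (Slc2a1, Pgk1) were lower, of which Pgk1 came to 0.543 times with a marker sum of at least 50, and none of 13 was higher and 4 (Slc2a1, Pfkp, Eno1, Slc7a11) were lower in MGJ2. Of 9 senescence and arrest genes, 3 were higher (Cdkn2a, Trp53, Igfbp7) and 3 lower (Cdkn1a, Cdkn1c, Apoe) in MGJ, and of 7 in MGJ2, 2 were higher (Cdkn2a, Trp53) and 2 lower (Cdkn1c, Lmnb1). The ratio of Apoe to Col10a1 cells came to 0.972 without the highest Scrublet scores, and that of Igfbp7 to 1.72 with a marker sum of at least 50. In MGJ2, Trp53 came to 1.57, Cdkn2a to 1.96 and Eno1 to 0.606 with each cell weighted equally.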

How the data were processed

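Callus cells of both libraries were profiled by droplet scRNA-seq. The authors deposited filtered gene-by-barcode matrices of raw UMI counts. The file headers name Cell Ranger 4.0.0, and the submitters' processing notes name GRCm38. The counts were not normalized.

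Osteoblasts, Col10a1 cells, other Col1a1 cells and neutrophils were selected by the limits given above in each library separately. No barcode was clustered and no doublet was removed. Barcodes were scored with Scrublet as run by scanpy 1.11.5. UMIs were summed over the cells of a class and divided by their total (CPM). Levels carry exact Poisson 95% intervals, ratios exact conditional binomial intervals and shares of cells Clopper-Pearson intervals. With 0 UMIs in 1 class, the ratio was computed with 3 counts in that class and its interval with the 0 itself. No test between libraries or classes was run, since each value has 1 library behind it. The counting was tested on simulated data. Intervals were computed with scipy 1.17.1, and tables with pandas 2.3.3, under Python 3.11.15.

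The cells, the 23 gene lists (325 genes) and the tests were chosen with earlier results of these data known. Genes were named if they were on a list, or among the 10 with the largest ratio in each direction per comparison and library. The ranked genes had at least 50 UMIs over both classes and were past 2-fold the same way in both libraries wherever both gave a value. The 10 genes with the largest variance over mean in osteoblasts thinned to 2000 UMIs (mean at least 0.2) were named too. The values of 1 listed item are not reported here.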

Additional observations from a re-analysis of the deposited data

Results flagged for a closer look

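Osteoblast RNA was also found in barcodes of MGJ outside the 121 cells. A set of 7 barcodes met every condition but the limits on genes and mitochondrial UMIs. They held 2151 to 4153 UMIs, 21% to 64.7% of them mitochondrial, with medians of 140 Col1a1 and 101 marker UMIs per 10000. Another 13 barcodes fell short of 2000 UMIs alone, with 510 to 1752 UMIs, 2.63% to 17.7% mitochondrial UMIs and medians of 394 Col1a1 and 68.6 marker UMIs per 10000. Osteocalcin at 20 or more UMIs per 10000 was found in 4 barcodes of MGJ outside the osteoblasts. All 4 failed the Col2a1 limit, 3 the Col1a1 limit and 2 the Col10a1 limit, and the highest held 25 UMIs per 10000. In MGJ2, 3 barcodes outside the osteoblasts reached this level, against 2 osteoblasts. They held a median of 47.4 and at most 84.7 UMIs per 10000, and 2 failed the Col2a1 limit and 1 the Col1a1 limit.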

How the results depend on the processing

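Of 105 recomputed numbers of cells or genes, 93 were within 1.5 times the reported ones. With genes counted from 10 UMIs instead of 50, 2409 genes of MGJ and 1261 of MGJ2 were higher than in Col10a1 cells and 1315 of MGJ2 lower, 1150 were higher than in other Col1a1 cells, 893 were higher and 1087 lower in MGJ2 than in MGJ osteoblasts, and 403 were higher and 1464 lower in the upper tertile. With Col2a1 and Col10a1 both below 20 per 10000, 80 osteoblasts of MGJ were left and 133 genes were higher in MGJ2 than in MGJ. A marker sum of at least 50 left 82 osteoblasts in MGJ, and removing the highest Scrublet scores at the expected doublet rate left 97, an alternative chosen after seeing the data. The tertiles could not be formed by osteocalcin, since 100 of 121 cells were tied at 0. No paired analysis was possible because the labels give the libraries neither a group nor a replicate number. With 17 osteoblasts in MGJ2, single cells set several of its levels. The ratios of 185 named genes were recomputed, each counted once for every comparison and alternative. Of these 5277 recomputed ratios, 3264 were past 2-fold as reported, and the direction of 20 of these turned. Turns among the other ratios were not counted. With both cartilage limits at 20, the ratio to Col10a1 cells was 0.815 for Cd74 and 0.803 for H2-Eb1 in MGJ and 0.309 for Dmp1 in MGJ2, that to other Col1a1 cells 0.675 for Chad and 0.773 for Cnmd, that of MGJ2 to MGJ 0.0616 for Dmp1, 0.89 for Irx5, 0.757 for Phex and 0.751 for Tnfrsf11b, and that of the upper to the lower tertile 1.55 for Lcn2 and 1.02 for Saa3. With a marker sum of at least 50, Mest in MGJ and Postn in MGJ2 were at 0.794 and 0.703 of Col10a1 cells, Tnc at 0.622 between libraries, and Dmp1 and Saa3 at 0.78 and 10.7 between tertiles. Without the highest Scrublet scores, Cd74 and H2-Eb1 were at 0.924 and 0.878 of Col10a1 cells and H2-Eb1 at 0.986 of other Col1a1 cells. With at most 10% mitochondrial UMIs, Cxcl12 was at 0.553 between libraries. The cause was not tested. In all, 122 of the 3264 recomputed ratios past 2-fold as reported came within it. The same ratio enters these numbers once per alternative, so they do not give the share of calls lost under any alternative. That share was not counted and can be larger.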
